A study of Mus musculus with 12 samples.

Results

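MYC and ribosome biogenesis genes were followed here as a list of 42 mouse genes: Myc itself and 41 genes whose proteins transcribe, modify or assemble ribosomal RNA. The members were the rows of the deposited gene count table that carried these symbols. All 42 were found, each on 1 row, among the 55335 genes of the table. They comprised Myc, 3 subunits of RNA polymerase I, 6 abundant nucleolar proteins and regulators, 4 proteins of box C/D snoRNPs, 3 proteins of box H/ACA snoRNPs, 12 small subunit assembly factors and 13 large subunit assembly factors.

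The study measured polyadenylated RNA by sequencing in PYMT-R221A cells, a line from a mouse mammary tumour driven by the polyoma virus middle T antigen. There were 4 groups of 3 libraries: cells exposed to KCC-07 at 40 µM, their control cells, cells transfected with an siRNA against Mbd2 (siMBD2), and cells given a scramble siRNA. KCC-07 is a small molecule described in the series title as an inhibitor of the MBD2 pathway, and MBD2 is a reader of methylated DNA that works through the NuRD repressor complex. The labels tag the replicates as biological and number them as batches. The controls of the drug arm are called wildtype in the design text. No source used here gives the vehicle, the hours of exposure to KCC-07 or the hours after transfection. All libraries came from a single cell line.

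Ribosomes are built in the nucleolus, where RNA polymerase I transcribes a long precursor that is cut, chemically modified and folded with ribosomal proteins. Box C/D snoRNPs guide methylation of the precursor, box H/ACA snoRNPs guide pseudouridylation, and separate sets of assembly factors build the small and the large subunit. MYC, a transcription factor that binds E-box DNA with its partner MAX, is known to raise transcription of many of these genes, and its activity is a well known driver of growth in mammary tumour cells.

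The canonical E-box is the palindrome CACGTG, which reads the same on both strands and was searched in 250 bases before and 50 bases after each RefSeq gene start (GRCm38.p6). A window was held for 36 of the 42 members; Myc, Npm1, Fbl, Rrp12, Bop1 and Rrs1 had none. The letters occurred in the windows of 9 of the 36 members, or 25%, and in those of 11.6% of the 10398 tested genes with a window. The 9 were Mybbp1a, Utp20, Wdr43, Ltv1, Pno1, Tsr1, Pes1, Nop2 and Nle1. In 1 of them, Nop2, the match lay before the start, and in the others it lay just after it. A match is a string of letters and says nothing about binding of MYC. In scramble against control cells 8.79% of all genes tested had an adjusted p under 0.05 in edgeR's quasi-likelihood test, 4.71% higher. Of the 9 members with a match 4 were called higher there, and of the 36 members with a window 14 were. The stretches of 30 bases below belong to those 4, with CACGTG in capitals.
Mybbp1a, chr11:72441347-72441376, plus strand: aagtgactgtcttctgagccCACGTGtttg
Utp20, chr10:88826765-88826794, minus strand: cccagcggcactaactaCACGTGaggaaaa
Tsr1, chr11:74898092-74898121, plus strand: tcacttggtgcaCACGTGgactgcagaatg
Nop2, chr6:125131811-125131840, plus strand: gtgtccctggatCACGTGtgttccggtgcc

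Total counts ran from 25831299 to 33956792 per library. Levels are given as CPM, a gene's count per fixed number of counts of its library, after TMM scaling, so they are shares of the RNA sequenced: fewer cells of a type and less RNA per cell cannot be told apart, nor can a change in total RNA per cell be seen. Mbd2, the target of the siRNA, had 35.7, 34.7 and 30.6 CPM in siMBD2 cells, against 75.8, 83.2 and 72.5 CPM in scramble cells, a log2 fold change of -1.20 ± 0.0867 (SE). It had 75.1, 72.8 and 77.1 CPM with KCC-07, against 72.9, 75.9 and 76.5 CPM in control cells. Of the mammary epithelial markers, all 13 were measured and their summed level was 2047 to 2641 CPM. Of these 13, 6 were called higher with KCC-07 against control, where 3.58% of all genes were, and 3 were called higher and 1 lower in scramble against control cells, where 4.71% of all genes were higher and 4.08% lower. The summed level of 9 leukocyte markers was at most 10.8 CPM, with Ptprc, Cd3e and Adgre1 at or near 0. Of these 9, 3 passed the filter on low counts. With KCC-07 against control 1 of the 3 was called lower, where 2.08% of all genes were, and none higher. The summed level of 5 endothelial markers was at most 6.7 CPM, with Cdh5 at 0. The 7 fibroblast markers, nearly all of it Pdgfra and Col1a1, summed to 102 to 160.5 CPM with KCC-07, against 186 to 218 CPM in control libraries, and to 139 to 159 CPM with siMBD2, against 143 to 147 CPM in scramble libraries. Their part in the results was not tested. Libraries of replicate 3 stood apart: the mitochondrially encoded share of counts was 3.90% in KCC-07 replicate 3, against 1.82% and 1.55% in the other KCC-07 libraries, and among control libraries it was 2.81% for replicate 3, against 1.45% and 1.47%. It was 2.70% in siMBD2 replicate 3, against 2.14% and 2.12% in the other siMBD2 libraries, and 3.01% in scramble replicate 3, against 2.21% and 2.32% in the other scramble libraries.

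All 42 members passed the filter on low counts that left 14935 genes for testing. Together they took 0.660% to 0.876% of the counts with KCC-07, 0.884% to 0.942% in control, 0.907% to 1.03% in siMBD2 and 0.993% to 1.11% in scramble libraries. Per kilobase of annotated exon the highest level belonged to Npm1, nucleophosmin, a nucleolar histone chaperone (934 CPM per kb as a mean of all libraries). Ncl, nucleolin, followed with 168 and Nhp2, a box H/ACA protein, with 148 CPM per kb, and the lowest was Wdr12 with 4.35 CPM per kb. These lengths count every annotated isoform, so a gene with long alternative exons is understated. Without regard to length, the lowest count share belonged to Nle1, a large subunit assembly factor, at 19.5, 17.7 and 17.8 CPM with KCC-07, 19.4, 23.7 and 21.8 CPM in control, 26.9, 28.4 and 25.9 CPM in siMBD2 and 29.8, 27.4 and 25.5 CPM in scramble cells. The KCC-07 and control libraries of Nle1 overlapped, and so did the siMBD2 and scramble libraries. The next lowest, Nop16, had 31.8, 33.2 and 30.1 CPM with KCC-07, against 33.1, 35.2 and 35.05 CPM in control cells, which overlapped by a single library.

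In 23 of 42 members the group means ran in the order scramble, siMBD2, control, KCC-07 from high to low, which held for 7.17% of all genes tested. In 37 of 42 members the highest group mean was that of scramble cells, which held for 20.2% of all genes. In 30 members the lowest mean was that of KCC-07 cells, which held for 27.5% of all genes. In 11 it was that of control cells, which held for 27.4% of all genes. The median coefficient of variation of the members within a group was 16.3% with KCC-07, 10.9% in control, 6.30% in siMBD2 and 7.75% in scramble cells. Over all genes it was 16.5% with KCC-07, 15.9% in control, 8.46% in siMBD2 and 7.89% in scramble cells. Replicate 3 gave the lowest value of its group in 39 members with KCC-07, 37 with siMBD2 and 41 with scramble siRNA, but in 18 control members, where 39.8% to 44.4% of all genes had replicate 3 lowest in a given group.

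**Figure D1:**
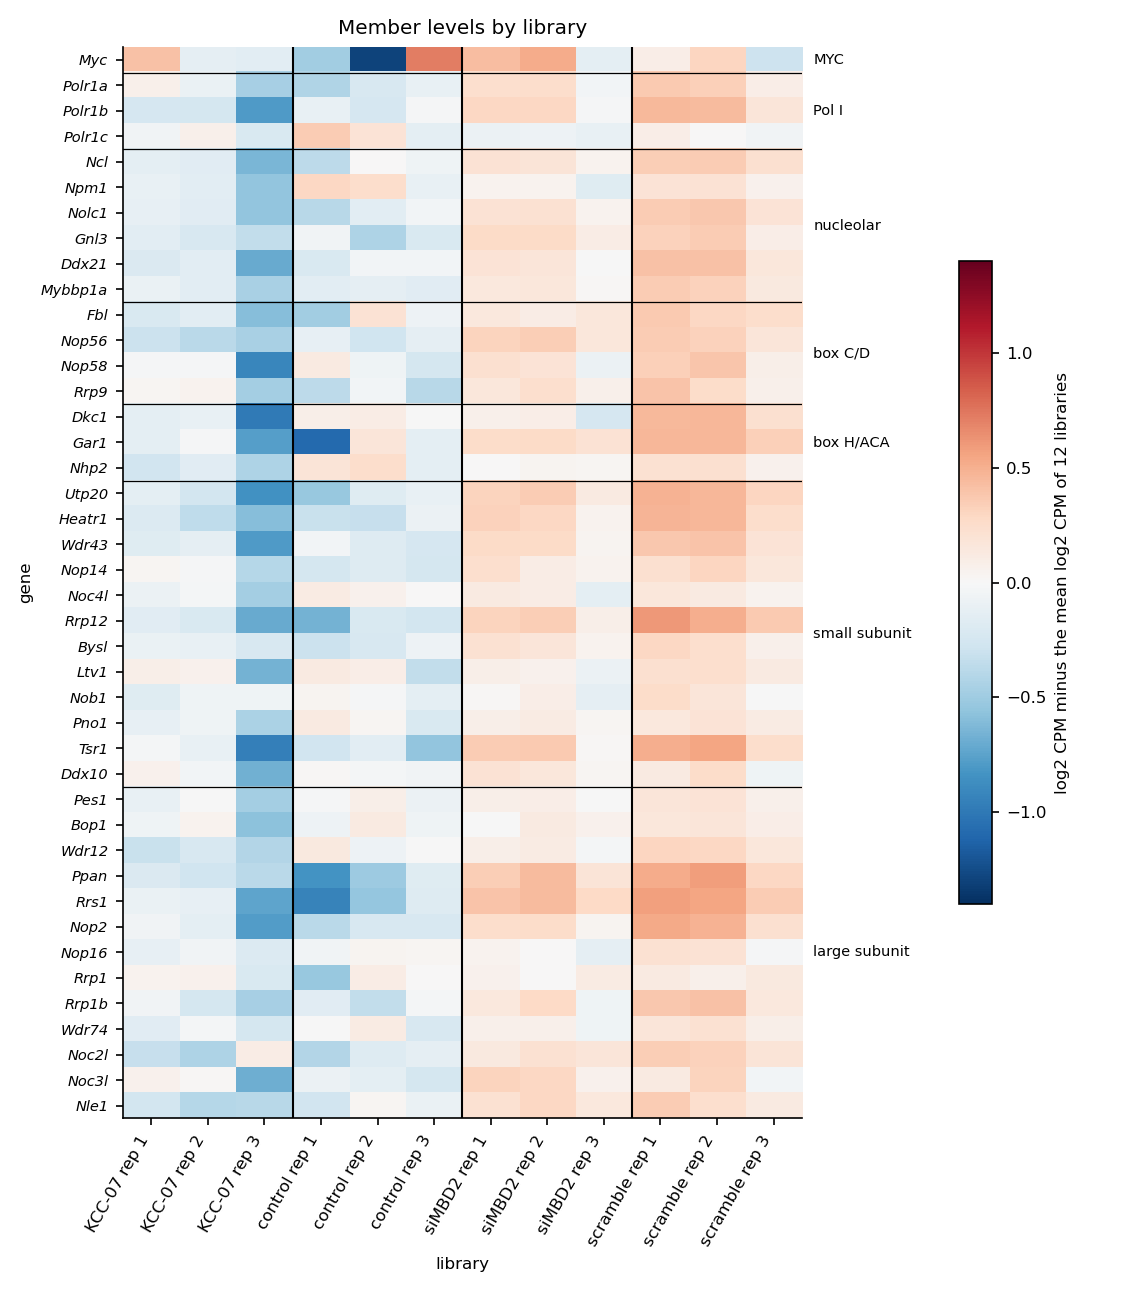
Levels of the 42 members (rows, by role) in the 12 libraries (columns), as log2 CPM minus the gene's mean log2 CPM over the libraries. siMBD2 and scramble libraries are above the mean for most genes, KCC-07 replicate 3 has the lowest value of all libraries in 32 of 42 rows, and Myc (top row) varies most among the control libraries.

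Myc, on chr15:61985391-61990374 on the plus strand with no exon of another gene over it (GRCm38), varied more between libraries than the other members. It had 218, 150.2 and 148 CPM with KCC-07, against 116, 66.4 and 268 CPM in control cells. The KCC-07 libraries lay inside the wide range of the controls, whose coefficient of variation was 69.9%, the largest of any member in any group. In siMBD2 cells Myc had 220.9, 234 and 148 CPM, against 175, 202 and 134 CPM in scramble cells, and these ranges overlapped too. The means were 172 ± 39.5 CPM with KCC-07, 150.4 ± 105 CPM in control, 201 ± 46.1 CPM in siMBD2 and 170.2 ± 34.5 CPM in scramble cells (SD, n = 3 each), so that neighbours in the order of means differed by less than their spread.

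The log2 fold change of Myc was 0.19 ± 0.395 (SE) with KCC-07, with an adjusted p of 0.804 by edgeR's quasi-likelihood test. By batch the log2 difference of Myc between KCC-07 and control was 0.90 in batch 1, 1.18 in batch 2 and -0.86 in batch 3, so its direction turned with the batch. Without the third batch it was 1.01 (adjusted p = 0.0156), in a fit that called 25.6% of all genes. Without control replicate 3 alone it was 0.91, and without control replicate 2 it was -0.17. It was 0.03 without control replicate 1 and -0.01 without KCC-07 replicate 1. Against scramble cells, siMBD2 cells had a Myc log2 fold change of 0.24 ± 0.395 (SE, adjusted p = 1), with 0.34, 0.21 and 0.15 in the batches. Scramble cells differed from control by 0.18 ± 0.395 (SE, adjusted p = 0.804). In that comparison too the value rested on the controls. Without control replicate 3 it was 0.90 and Myc passed (adjusted p = 0.0494), in a fit that called 20.4% of all genes. It was 0.02 without control replicate 1 and -0.18 without control replicate 2. Control replicate 2 held the lowest Myc of all 12 libraries. It also held the highest summed level of the other 41 members among the controls, 9285 CPM, against 8725 and 8433 CPM in control replicates 1 and 3. Npm1 and Ncl were the largest parts of that sum. The typical member differed little: the median log2 deviation of the members from their control mean was 0.044 in control replicate 2, against -0.015 and 0.016 in replicates 1 and 3.

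**Figure D2:**
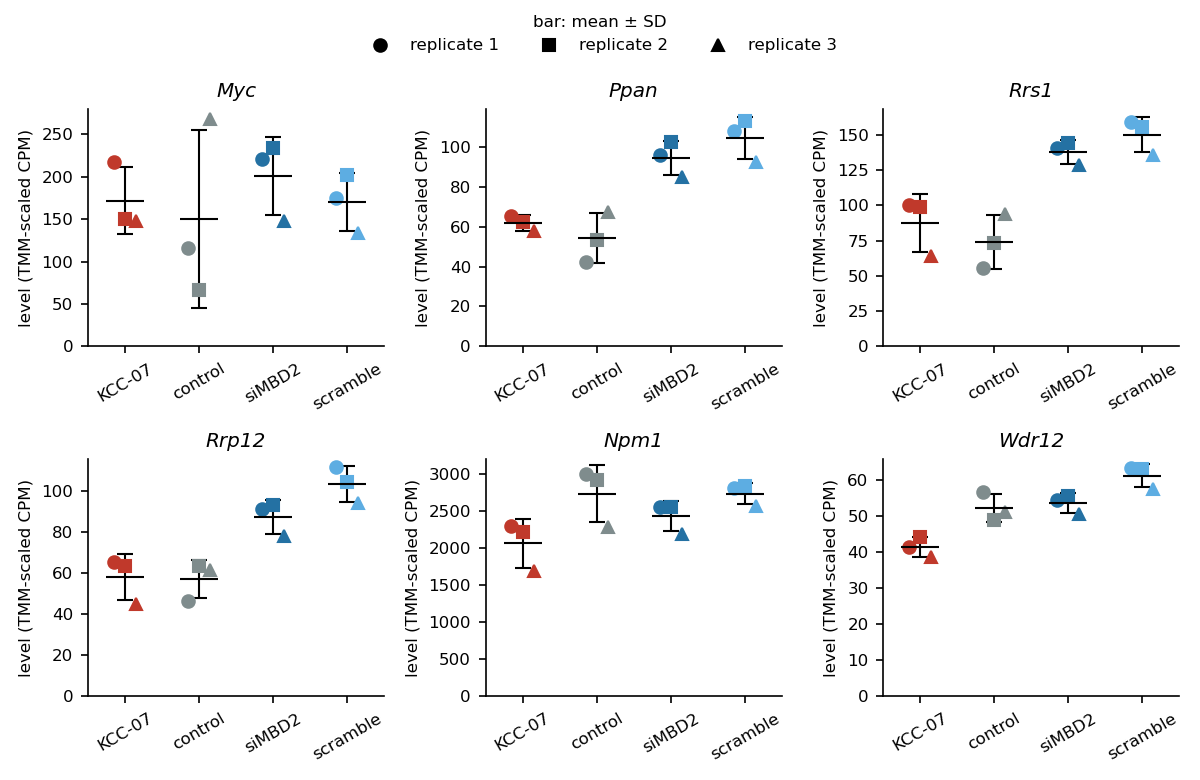
Levels of Myc and of 5 members in TMM-scaled CPM (vertical axes, from 0) in each library, with the group mean and SD. Ppan, Rrs1 and Rrp12 lie higher in every siMBD2 and scramble library than in every KCC-07 and control library, Npm1 and Wdr12 are lowest with KCC-07 replicate 3, and Myc spreads from 66.4 to 268 CPM among the control libraries.

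The comparison of KCC-07 with control cells asks how the compound changes these genes. No member rose or fell with KCC-07 at an adjusted p under 0.05 in edgeR's quasi-likelihood test, where 5.65% of all genes tested did. At an unadjusted p under 0.05 there were 6 members, all lower (Npm1, Nop56, Dkc1, Nhp2, Wdr12 and Nle1), and 11.4% of all genes were lower at that level. DESeq2's Wald test called 3 members lower (Nhp2, Npm1 and Wdr12), where it called 12.5% of all genes in either direction. With the batch number as a replicate block, 4 members were called lower (Dkc1, Nhp2, Npm1 and Wdr12), where that fit called 21.8% of all genes. Log2 fold changes of the 42 members ran from -0.42 to 0.24 with a median of -0.11, against 0.02 over all genes, and 31 of 42 were below 0, against 48.2% of all genes. In 6 of 42 members (Polr1b, Nop56, Dkc1, Nhp2, Noc4l and Wdr12) every KCC-07 library lay below every control library, which held for 10.6% of all genes, and in none did every one lie above.

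Large subunit assembly held the smallest p. Wdr12, which forms the PeBoW complex with Pes1 and Bop1, had 41.3, 44.0 and 38.6 CPM with KCC-07, against 56.4, 48.8 and 51.1 CPM in control cells. Every KCC-07 library lay below every control library. The log2 fold change was -0.34 ± 0.0905 (SE), with an adjusted p of 0.0515, which missed the threshold narrowly. Its partners Pes1 (-0.18 ± 0.111, SE) and Bop1 (-0.18 ± 0.133, SE) had smaller log2 fold changes. The 13 large subunit members ran from -0.34 to 0.24 with a median of -0.07, and Rrs1 (0.24) and Ppan (0.19), a ribosomal RNA processing factor, stood at the upper end.

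Among the snoRNP proteins, Nhp2 had 139.9, 151 and 125 CPM with KCC-07, against 191, 199 and 153 CPM in control cells. The groups did not overlap, although the control library of replicate 3 lay close to KCC-07 replicate 2. The log2 fold change of Nhp2 was -0.39 ± 0.107 (SE, adjusted p = 0.055). Dkc1, dyskerin, the pseudouridine synthase of the same particles, had 110.3, 113 and 61.2 CPM with KCC-07, against 129, 131 and 122 CPM in control cells. All KCC-07 libraries were below all controls, and replicate 3 was far below its companions, so the log2 fold change of -0.42 carried an SE of 0.191 (adjusted p = 0.194). Gar1, which binds Dkc1, had -0.01 ± 0.261 (SE), turning above 0 when libraries were scaled by total counts. Nop56, a core protein of box C/D particles, had 213, 202 and 192 CPM with KCC-07, against 242, 216 and 241 CPM in control cells, without overlap, and a log2 fold change of -0.20 ± 0.088 (SE, adjusted p = 0.176). The methyltransferase Fbl (-0.21) and Nop58 (-0.21) had similar values, and Rrp9, the protein specific to the U3 particle, 0.14.

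Of the nucleolar proteins, Npm1 had 2291, 2214 and 1682 CPM with KCC-07, against 3000.1, 2916 and 2285 CPM in control cells. In each batch the KCC-07 library was the lower one, but control replicate 3 lay just below KCC-07 replicate 1. The log2 fold change was -0.41 ± 0.137 (SE, adjusted p = 0.0972). Ncl had 1528, 1511 and 1078 CPM with KCC-07, against 1303, 1695 and 1619 CPM in control cells, and the groups overlapped (log2 fold change -0.17 ± 0.139, SE). All 6 nucleolar members had log2 fold changes below 0, from -0.41 for Npm1 to -0.01 for Gnl3, nucleostemin. The RNA polymerase I subunits differed among themselves, with Polr1b, the second largest subunit, at -0.29, Polr1c at -0.21 and Polr1a, the catalytic subunit, at 0.10. The 12 small subunit members ran from -0.24 (Noc4l) to 0.11 (Nop14), a pair of proteins that bind each other in the small subunit precursor, with a median of -0.12.

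Which libraries carried the lower values was uneven. The median log2 difference of the 42 members between KCC-07 and control was 0.04 in batch 1, -0.04 in batch 2 and -0.42 in batch 3, with 17, 27 and 40 of 42 below 0. KCC-07 replicate 3 held the lowest value of all 12 libraries in 32 of 42 members, which held for 22.3% of all genes. That library had the highest mitochondrially encoded share, and the part of RNA quality in these values was not tested. Without KCC-07 replicate 3 the median of the members was 0.0091, and without control replicate 3 the count of members called lower was 4 (Nhp2, Npm1, Polr1c and Wdr12), where 13.9% of all genes were called. Without the third batch in every group 11 members were called, where 25.6% of all genes were: 6 were higher and 5 lower. Wdr12, Nhp2 and Npm1 were among those 5, with log2 fold changes of -0.30, -0.42 and -0.39 over the first 2 batches.

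**Figure D3:**
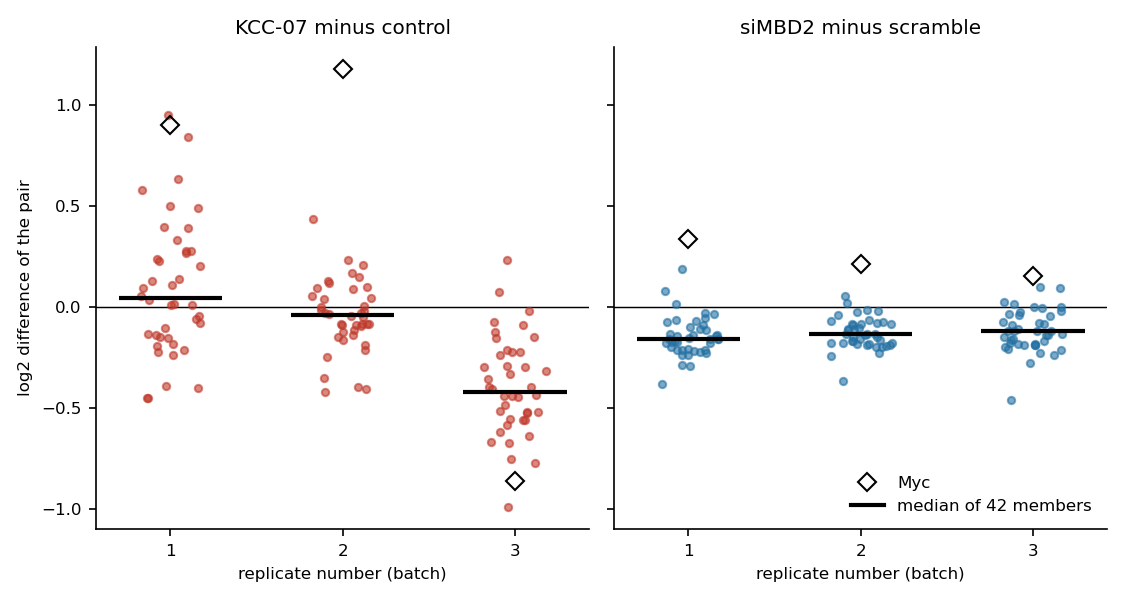
Log2 difference of each member within a batch (points), for KCC-07 minus control and for siMBD2 minus scramble cells, with the median of the members (bar) and Myc (diamond). The medians with KCC-07 are 0.04, -0.04 and -0.42, those with siMBD2 are -0.16, -0.14 and -0.12.

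The comparison of siMBD2 with scramble cells asks how the knockdown of Mbd2 changes the same genes. No member passed an adjusted p of 0.05 by edgeR's quasi-likelihood test, where 0.0402% of all genes did (6 genes, all lower). None had an unadjusted p under 0.05 in that fit over all 12 libraries either, where 5.26% of all genes did. That count depended on the fit. It was 4 with the replicate block, 12 without the third batch and 10 on the 6 libraries of the comparison alone. On those 6 with the block it was 31. The share of all genes at that level was not counted in these fits. DESeq2's Wald test called no member, where it called 0.562% of all genes. With the replicate block, again no member was called, among 112 genes in all (0.75%). The differences were small but lay on 1 side: 39 of 42 members had a log2 fold change below 0, against 49% of all genes, with a median of -0.14, against 0.0035 over all genes. The 3 above 0 were Myc (0.24), Noc3l (0.08) and Ddx10 (0.02), joined by Nop56 and Nle1 when libraries were scaled by total counts. In 11 of 42 members every siMBD2 library lay below every scramble library, which held for 11.6% of all genes.

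The largest difference was that of Dkc1, with 127, 129.8 and 103 CPM in siMBD2 cells, against 166, 167 and 142 CPM in scramble cells. The groups did not overlap, and the log2 fold change was -0.40 ± 0.190 (SE, adjusted p = 0.969). The other proteins of box H/ACA particles were at -0.18 (Gar1) and -0.14 (Nhp2). Nhp2 had 169, 173 and 171 CPM in siMBD2 cells, against 195, 196 and 176 CPM in scramble cells, also without overlap. Wdr12 had 54.3, 55.6 and 50.3 CPM in siMBD2 cells, against 63.1, 62.9 and 57.3 CPM in scramble cells. All siMBD2 values were below all scramble values, with a log2 fold change of -0.19 ± 0.0903 (SE, adjusted p = 0.947).

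Mybbp1a, a nucleolar regulator of RNA polymerase I, had 587, 594 and 535 CPM in siMBD2 cells, against 679, 663 and 582 CPM in scramble cells. Scramble replicate 3 fell among the siMBD2 values, and the log2 fold change was -0.17 ± 0.103 (SE, adjusted p = 1). Nop16, a large subunit factor known from yeast, had 35.6, 34.5 and 31.5 CPM in siMBD2 cells, against 39.6, 39.4 and 34.0 CPM in scramble cells, with overlap at scramble replicate 3 and a log2 fold change of -0.15 ± 0.0944 (SE, adjusted p = 1). Npm1 had 2552, 2549 and 2189 CPM in siMBD2 cells, against 2805, 2831 and 2565 CPM in scramble cells. Ncl had 1938, 1903 and 1738 CPM in siMBD2 cells, against 2144, 2163 and 1975 CPM in scramble cells. For both genes the groups were separate, at log2 fold changes of -0.17. The ranges by role were -0.17 to -0.10 for RNA polymerase I, -0.22 to -0.04 for nucleolar proteins, -0.17 to -0.01 for box C/D proteins, -0.24 to 0.02 for the small subunit and -0.23 to 0.08 for the large subunit.

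By batch the median of the members was -0.16, -0.14 and -0.12, and 38, 39 and 37 of 42 were below 0. The SD of the 3 batch medians was 0.0178, against 0.248 for KCC-07 minus control. Fitted on the 6 libraries of the comparison alone, no member was called, where 1.26% of all genes were. That fit with the replicate block called 25 members, 24 lower and Myc higher (adjusted p = 0.00094), where it called 19.8% of all genes. Without the third batch Dkc1 alone was called among the members, where 1.08% of all genes were.

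The effects of KCC-07 and of siMBD2 were also compared with each other. The difference (KCC-07 minus control) minus (siMBD2 minus scramble) passed the threshold for no member by edgeR's quasi-likelihood test, where 0.656% of all genes did. No member had an unadjusted p under 0.05 in that fit, where 14.6% of all genes did. The count was 2 with the replicate block, 6 without KCC-07 replicate 3 and 13 without the third batch. The share of all genes at that level was not counted there. DESeq2's Wald test called no member, where it called 4.13% of all genes. The replicate block called none either, where it called 6.9% of all genes. The median difference was 0.02 on the log2 scale, with 23 members above 0, against 50.3% of all genes, and 19 below. The SE of the difference was 0.559 for Myc, so an equal response is not shown by these values. Without the third batch 4 members differed, Polr1a, Ppan, Rrs1 and Nop2, all with the higher value for KCC-07, where 10.6% of all genes differed.

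**Figure D4:**
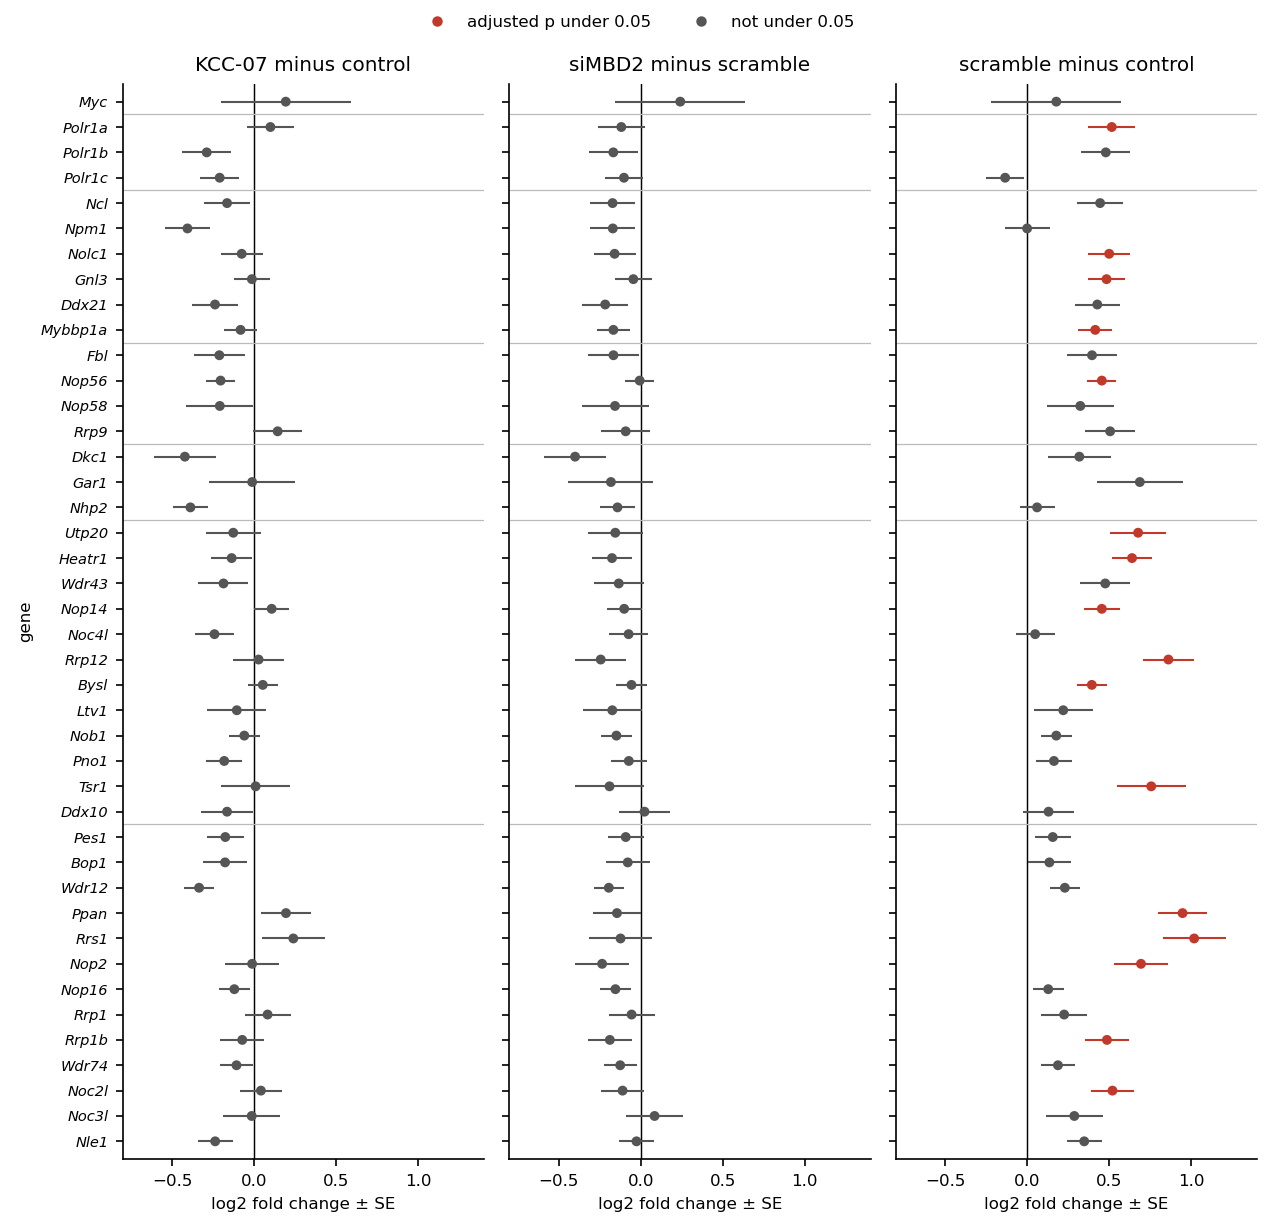
Log2 fold change with its SE for each member (rows, by role) in KCC-07 against control, siMBD2 against scramble and scramble against control cells. No member has an adjusted p under 0.05 in the first 2 panels, and 16 have in the panel of scramble against control cells, all to the right of 0.

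The comparison of scramble with control cells asks where the controls of the 2 arms differ. It shares the control libraries with the KCC-07 comparison and the scramble libraries with the siMBD2 comparison. Of the 42 members 16 rose in scramble cells at an adjusted p under 0.05 by edgeR's quasi-likelihood test, and none fell. Of all genes tested 8.79% passed, 4.71% higher. The median log2 fold change was 0.40, against -0.03 over all genes, and 40 of 42 members were above 0, against 46.9% of all genes. At an unadjusted p under 0.05 there were 25 members, all higher, where 12.9% of all genes were higher. DESeq2's Wald test called 22 members, where it called 15.4% of all genes, and the replicate block 21, where it called 13.8%; both counts took in all 16. In 27 of 42 members every scramble library lay above every control library, which held for 16.4% of all genes. The 2 members at or below 0 were Polr1c (-0.13 ± 0.117, SE), a subunit that RNA polymerases I and III share, and Npm1 (-0.00 ± 0.137, SE), which was above 0 under DESeq2's size factors.

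Rises were found in each role but those of MYC and of the box H/ACA proteins. They comprised 1 of 3 RNA polymerase I subunits (Polr1a), 3 of 6 nucleolar proteins (Nolc1, Gnl3 and Mybbp1a), 1 of 4 box C/D proteins (Nop56), 6 of 12 small subunit factors (Utp20, Heatr1, Nop14, Rrp12, Bysl and Tsr1) and 5 of 13 large subunit factors (Ppan, Rrs1, Nop2, Rrp1b and Noc2l). The log2 fold changes of the 16 ran from 0.39 (Bysl) to 1.02 (Rrs1). Of the box H/ACA proteins, Gar1 was at 0.69 ± 0.261 (SE) with an adjusted p of 0.116, its control libraries spreading from 19.9 to 47.4 CPM.

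The large subunit held the largest rises. Rrs1, known in yeast to bring the small ribosomal RNA of the large subunit into the precursor, lies on chr1:9545408-9547455 on the plus strand (GRCm38). It had 159, 156 and 136 CPM in scramble cells, against 55.8, 72.9 and 93.6 CPM in control cells, a log2 fold change of 1.02 ± 0.193 (SE, adjusted p = 0.0105). Every scramble value was well above every control value. Ppan, on chr9:20888175-20892178 on the plus strand, had 108, 113 and 92.3 CPM in scramble cells, against 42.2, 53.1 and 67.2 CPM in control cells. Its log2 fold change was 0.95 ± 0.15 (SE, adjusted p = 0.00572), again without overlap. For both genes control replicate 3 was the highest control and scramble replicate 3 the lowest scramble library, but whether the arms shared batches is unclear. Nop2, a methyltransferase of large subunit RNA, had a log2 fold change of 0.69 ± 0.165 (SE), and Noc2l 0.52 ± 0.130 (SE), while Noc3l, a partner of Noc2l in yeast, had 0.29 ± 0.172 (SE) and did not pass. Wdr12, Pes1 and Bop1 of the PeBoW complex were at 0.23, 0.16 and 0.14 and did not pass.

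In the small subunit, Rrp12, an export and maturation factor of the small subunit precursor, lies on chr19:41862851-41896173 on the minus strand. It had 112, 104 and 94.4 CPM in scramble cells, against 46.3, 63.3 and 61.4 CPM in control cells. All scramble libraries were higher, with a log2 fold change of 0.86 ± 0.157 (SE, adjusted p = 0.00943). Heatr1, a component of the small subunit processome, had 147, 146 and 126 CPM in scramble cells, against 85.1, 84.2 and 100.02 CPM in control cells, without overlap (0.64 ± 0.124, SE, adjusted p = 0.0111). Nop14 had 123, 130.0 and 118 CPM in scramble cells, against 89.1, 92.9 and 88.7 CPM in control cells, separate groups with a tight control (0.45 ± 0.108, SE, adjusted p = 0.026). Its partner Noc4l was at 0.05 ± 0.118 (SE), and below 0 when libraries were scaled by total counts. Bysl had 85.2, 82.1 and 73.4 CPM in scramble cells, against 56.8, 60.02 and 66.4 CPM in control cells, the closest groups among these genes (0.39 ± 0.0918, SE, adjusted p = 0.0241). The late factors Nob1 (0.18), the nuclease that makes the mature end of small subunit RNA, Pno1 (0.16) and Ltv1 (0.22) did not pass.

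In the nucleolus, Gnl3 had 149, 152 and 127 CPM in scramble cells, against 115, 88.3 and 102 CPM in control cells, separate groups with a log2 fold change of 0.48 ± 0.111 (SE, adjusted p = 0.0229). Mybbp1a had 679, 663 and 582 CPM in scramble cells, against 478, 488 and 477 CPM in control cells, also separate (0.41 ± 0.103, SE, adjusted p = 0.0304). Nolc1, a chaperone of snoRNPs, was at 0.50 ± 0.128 (SE). Ncl (0.44 ± 0.139, SE) and Ddx21 (0.43), a nucleolar RNA helicase, did not pass, although their scramble libraries all lay above the controls. Nop56 had 335, 328 and 294 CPM in scramble cells, against 242, 216 and 241 CPM in control cells, and passed (0.45 ± 0.0881, SE, adjusted p = 0.0111).

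The rises depended on which libraries entered the fit. The count of members called was 2 without scramble replicate 1 (where 1.91% of all genes were called), 3 without scramble replicate 2 (2.27%), 9 without scramble replicate 3 (3.67%), 6 without control replicate 1 (4.05%) and 4 without control replicate 2 (3.67%). It was 9 without siMBD2 replicate 1 (5.55%) and 9 without siMBD2 replicate 2 (5.66%). It was 18 without control replicate 3 (20.4%) and 23 without KCC-07 replicate 3 (16.5%). It was 16, 13 and 15 without KCC-07 replicate 1 (7.28%), KCC-07 replicate 2 (7.02%) and siMBD2 replicate 3 (7.72%). Without the third batch it was 31, of which 30 were higher, where 41.1% of all genes were called. A fit of the 6 libraries alone called 15 members, where it called 6.21% of all genes. With the replicate block added it called 2 members, Rrp12 and Tsr1, where it called 2.17% of all genes. Rrp12 was called in all 21 alternatives, Ppan in 20 and Rrs1 in 19, while Tsr1 and Rrp1b were called in 10. Of the 16 genes 10 share exon sequence with an antisense gene (Polr1a, Gnl3, Mybbp1a, Nop56, Heatr1, Nop14, Bysl, Tsr1, Rrp1b and Noc2l), and their values are uncertain because no source used here gives the strand setting of the counting or its handling of reads that match several places. The same holds for 21 of the 42 members, of which 19, Dkc1, Nhp2 and Wdr12 included, have an antisense overlap, while Npm1 and Fbl have a near-identical copy only. In addition, 5 members share exon sequence with a gene on the same strand: Ppan, Gnl3, Nop56, Ncl and Nop58. How reads over such exons were counted is not given either. An overlap or copy of any kind was found for 24 of the 42 members and for 11 of the 16. Scramble siRNA transfection cannot be told apart from any other difference between the arms in culture or library preparation. The mitochondrially encoded share was 2.21% to 3.01% in scramble libraries, against 1.45% to 2.81% in control libraries. The fibroblast markers summed to 143 to 147 CPM in scramble libraries, against 186 to 218 CPM in control libraries, with Pdgfrb called lower (-2.34), and 4 of the 13 epithelial markers were called as given above. The part of none of these in the rises was tested.

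Genes around these members, from lists drawn up with results of these data known, were counted in the same fits. With KCC-07 3.58% of all genes tested rose and 2.08% fell, and the median of all genes was 0.02. A fit of the 6 KCC-07 and control libraries alone called 1 gene in all, which was higher. So none of the falls named next, and at most 1 of the rises, passed there. In the fit over all libraries the MYC network (16 genes tested) had 2 genes lower, Mxd4 (-0.95) and Mxd3 (-0.39), both antagonists that compete with MYC for MAX, and none higher. Of 27 known MYC targets outside the ribosome 5 fell, among them Cdk4 (-0.60 ± 0.0945, SE, adjusted p = 0.00765), a cell cycle kinase, Impdh2 (-0.47), an enzyme of guanine nucleotide synthesis, and Phb (-0.34), and 1 rose, the transferrin receptor Tfrc (0.42). The median of the 27 was -0.24. Of the other ribosome genes, 1 of 18 RNA polymerase I genes fell (Znrd1, -0.46), 1 of 43 small subunit factors (Emg1, -0.34) and 1 of 48 large subunit factors (Rpf2, -0.51), the binding partner of Rrs1, against 2.08% of all genes. Of 16 snoRNA host rows 2 fell, Gas5 (-0.53) and 1 of the 2 rows named Snhg4 (-0.90, with the other at 0.42 and not past the threshold). Among 9 genes that link free ribosomal proteins to p53, Mdm2, the ubiquitin ligase that p53 induces, rose (0.63 ± 0.107, SE, adjusted p = 0.009), and Cdkn1a was at 0.87 with an adjusted p of 0.105.

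With siMBD2 none of these lists had a gene past the threshold by edgeR's quasi-likelihood test, and 4 of their genes had an unadjusted p under 0.05. The smallest p was that of Naf1, an assembly factor of box H/ACA particles, at -0.65 ± 0.128 (SE, adjusted p = 0.154). In scramble against control cells 4.71% of all genes rose and 4.08% fell, with a median of -0.03. There, 7 of the 43 other small subunit factors rose, with a median log2 fold change of 0.17, among them Utp15 (0.48), Esf1 (0.49), Pwp2 (0.68) and Dhx37 (0.45), and none fell. Of the other large subunit factors 8 of 48 rose, with a median of 0.22, among them Urb2 (0.76), Urb1 (0.77), Nol9 (0.58) and Sdad1 (0.54), and none fell. Of the other RNA polymerase I genes 2 of 18 rose, Tcof1 (0.49) and Taf1d (0.47), and 1 fell, Znrd1 (-0.48). Of the MYC network 3 of 16 fell, Mxd3 (-0.53), Mxi1 (-0.76) and Mycl (-1.46), of the known MYC targets outside the ribosome none of 27 passed, and of the snoRNA host rows 1 of 16 rose (the same Snhg4 row, 0.64).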

How the data were processed

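Whole-number read counts per gene, with no normalization, were deposited as 1 table of 12 libraries and 55335 genes. Per the submitters' processing notes, DRAGEN, DESeq2 1.44.0, mm10 and GRCm38.p6 were used, with no step named. How the authors annotated genes, counted multi-mapped reads and set the strand is not given in the sources used here. Columns were joined to samples through the library names of the labels, and groups through the treatment label. Replicate pairs within a group differed by more than sampling noise.

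The members, the gene lists and the rule for named genes were chosen with earlier results of these data known. The filterByExpr rule of edgeR, at a count of 10 and a total of 15 with the 4 groups given, kept 14935 genes. edgeR 4.0.16 under R 4.3.3 fitted the TMM-scaled counts (glmQLFit and glmQLFTest), 1 mean per group over all 12 libraries, with 8 residual degrees of freedom. P-values were adjusted by Benjamini-Hochberg over all genes tested, a gene passed under 0.05, and the SE was taken from the size of the log2 fold change and the root of its F statistic. The fit was tested on simulated data. Levels are TMM-scaled CPM, and P-values measure the spread between these libraries. Library totals were 25831299 to 33956792 counts. With 3 libraries a group an exact permutation test reaches no p below 0.1, so genes were tested only in the model across all genes.

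Values in every library were given for Myc, for up to 8 members called per comparison by smallest p, for the 4 members with the smallest p where fewer than 4 were called, and for the 2 members with the highest and the 2 with the lowest mean level. Npm1, Ncl and other members are also described where they complete a role. Alternatives were other scalings and filters, the replicate block, the libraries of a comparison alone, DESeq2 1.42.0, leaving out each library, and leaving out the third batch.

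The labels' batch tag pairs the libraries within each arm. For deviations from the group mean, r across genes between same-numbered KCC-07 and control libraries was 0.27, 0.28 and 0.48. Between same-numbered siMBD2 and scramble libraries it was 0.09, 0.15 and 0.42. Crossing replicates 1 and 2 gave 0.173 and 0.295 between KCC-07 and control, and 0.18 and 0.21 between siMBD2 and scramble libraries. These values set replicate 3 apart but do not show which libraries of replicates 1 and 2 belong together. Between same-numbered scramble and control libraries r was 0.07, 0.02 and 0.13. The library names number replicate 3 otherwise in the drug arm, so whether the arms shared batches is unclear. Coordinates and exon overlaps came from GENCODE release M21 of GRCm38, in which 54587 identifiers were found with their version and 567 under another version. Copies were called near-identical from 95% identity along 50% of a transcript. Promoter letters came from RefSeq on GRCm38.p6.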

Additional observations from a re-analysis of the deposited data

How the results depend on the processing

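Leaving out each library in turn moved the median log2 change of the members between -0.19 and 0.0091 with KCC-07 against control, between -0.20 and -0.084 with siMBD2 against scramble, between -0.072 and 0.13 for the difference of the effects, and between 0.36 and 0.47 with scramble against control. The members called ran from 0 to 4 with KCC-07, from 2 to 23 with scramble against control, and were 0 in the other comparisons. The genes called ran from 384 to 2112, 2 to 30, 11 to 320 and 293 to 3110 in the same order of comparisons. For Myc these fits gave -0.17 to 0.91 with KCC-07, -0.41 to 0.67 for the difference and -0.18 to 0.90 for scramble against control.

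With the replicate block 3251 genes and 4 members were called with KCC-07, 112 genes and no member with siMBD2, 1030 genes for the difference and 2062 genes with 21 members for scramble against control, where the shared block is uncertain. The block turned the difference for Myc to 0.19. Without the third batch 3832 genes and 11 members were called with KCC-07, 162 genes and 1 member with siMBD2, 1583 genes and 4 members for the difference, with Myc at 0.74, and 6164 genes and 31 members for scramble against control. The libraries of a comparison alone gave 1 gene with KCC-07, 177 with siMBD2, and 890 genes and 15 members with scramble against control. With the block added they gave 412 genes with KCC-07, 2790 genes and 25 members with siMBD2, and 311 genes and 2 members with scramble against control. DESeq2's Wald test called 1871 genes and 3 members with KCC-07, 84 genes with siMBD2, 617 for the difference and 2299 with scramble against control. Without a filter on low counts 176 genes differed between the effects, and scaling by total counts gave a siMBD2 median of -0.11. A filter at 1 CPM in 3 libraries called 1 member with KCC-07, where it called 6.93% of all genes. The cause of these shifts was not tested.

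Over all members and alternatives, 811 of 882 results with KCC-07 kept their direction and side of the threshold, as did 843 of 882 with siMBD2. For the difference 711 of 798 did, and for scramble against control 732 of 882. With KCC-07, with siMBD2 and for the difference, no member was called to begin with, so keeping the side meant staying uncalled. Some alternatives left out a library from outside the comparison. These counts are therefore no measure of how stable the results are.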
